A study of Homo sapiens with 18 samples.

Results

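The data are 6 RNA-seq libraries of the human triple-negative breast cancer line MDA-MB-231 in which IMPDH2 had been knocked out and then given back in 1 of 2 addressed forms, told apart by their titles. Nuclear IMPDH2 (3 libraries, titled KO-NLS) and cytosolic IMPDH2 (3 libraries, titled KO-NES) were compared directly, 6 of the 18 libraries in the series. NLS and NES are the usual short names of a nuclear localisation and a nuclear export signal. Both groups carried the knockout and were grown without guanosine. The other 12 libraries were unedited cells (WT), knockout cells (KO), knockout cells with 400 µM guanosine, and knockout cells given IMPDH2 with no added address ("unlocalised" here), 3 libraries each. They entered the fit to estimate the spread and are quoted as reference levels. Which promoter drove each form, whether a line was 1 clone or a pool, and whether the libraries came from separate cultures are not given in the sources used here. The p-values therefore measure the spread between these libraries, which may be technical. The genotype field numbers the enzyme upwards from library to library (Nuclear-IMPDH2, -IMPDH3, -IMPDH4), and the cell line field counts upwards in the same way. The titles say IMPDH2, the source field and growth protocol say MDA-MB-231, and these were followed.

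IMPDH2 is inosine monophosphate dehydrogenase 2, which uses NAD to make xanthosine monophosphate from inosine monophosphate, the rate-limiting step of guanine nucleotide synthesis. IMPDH1 is its paralog. The enzyme is mostly cytosolic and is also found in the nucleus. PARP1 uses NAD to build poly(ADP-ribose) at DNA breaks, and the title of the series links nuclear IMPDH2 to PARP1 and the DNA damage response. The comparison addresses whether gene expression differs between the addressed forms, with IMPDH2 transcript present in both groups. The amount and location of the enzyme were not measured in these RNA libraries. The form cannot be told apart from the line that carries it.

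The nuclear libraries held 53600045, 60902918 and 51254868 expected counts and the cytosolic ones 51835872, 63276484 and 49495379, in a series that ran from 45865079 to 63276484. Expected counts are Salmon's estimates of reads per transcript, summed here to genes. CPM below is the gene's count scaled to a common library size (TMM-scaled), and differences are log2 values of nuclear minus cytosolic. The first principal component of the 6 libraries took 47.5% of the variance and separated the 2 forms. The second took 18.1% and set cytosolic replicate 3 apart (15.8, against -10.1 and -6.18 for the other cytosolic libraries), and counts without it are given with the results. An offset for the average length of the transcripts behind each gene in each library is called the length offset. Counts with it stand beside those without it for most lists. The cell line markers had 5 higher and 3 lower of 15 (median log2 difference 0.03; 2 higher and 2 lower with the length offset), with 3 higher without nuclear replicate 3, and vimentin (VIM) stood at 4067 and 4656 CPM. Of the markers of blood and endothelial cells, 9 of 15 were tested (2 higher, 1 lower), with CD3E, MS4A1, HBB, CDH5 and ITGAM among those under the count filter.

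IMPDH2 itself (chr3:49024325-49029408, minus strand, GRCh38) was present in every library of both forms and was lower with the nuclear form. It stood at 283, 305 and 304 CPM in the nuclear libraries and 371, 395 and 371 in the cytosolic ones, and the groups did not overlap (log2 difference -0.35 ± 0.02896 SE, edgeR adjusted p = 1.33e-07). A lack of overlap was common, here and in the genes below: it held for 6969 of the 19252 genes tested (36.2%). The other groups stood at 532 ± 10.4 CPM (SD, n = 3) with the unlocalised form, 41.6 ± 0.566 in KO and 319 ± 0.557 in WT. The full-length coding transcript IMPDH2-201 made up 94.3% of the gene's counts in the nuclear and 95.7% in the cytosolic libraries, against 73.1% in WT. Its level was 267, 289 and 283 CPM of the unscaled library total with the nuclear and 359, 369 and 353 with the cytosolic form. The forms thus differed in transcript level as well as in address, and the part of that level in the results below was not tested. IMPDH1 was at 53.9 ± 0.447 and 50.7 ± 1.6 CPM (log2 difference 0.09 ± 0.0319 SE, edgeR adjusted p = 0.0491), a call that was lost under every other setting tried except without cytosolic replicate 3. PARP1 was at 377 ± 8.55 and 364 ± 10.9 CPM and did not pass the test (log2 difference 0.05 ± 0.0257 SE, edgeR adjusted p = 0.155).

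Expression differed broadly but mostly by small amounts. At an adjusted p under 0.05, 4600 of 19252 genes differed (23.9%): 2571 were higher with nuclear IMPDH2 (13.4%) and 2029 lower (10.5%). In 3871 of the 4600 (84.2%) the difference was under 1.5-fold, and the median size was 0.225 on the log2 scale. At least 2-fold differences were found in 185 genes higher (0.961%) and 149 lower (0.774%). When the test itself required more than a 2-fold change, 25 genes were higher and 19 lower. Leaving out cytosolic replicate 3 gave 2271 higher and 1915 lower genes, and an offset for the length of the transcripts behind each gene gave 1085 and 770. These are bulk RNA libraries, in which fewer cells of a type and less RNA per cell cannot be told apart.

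**Figure D1:**
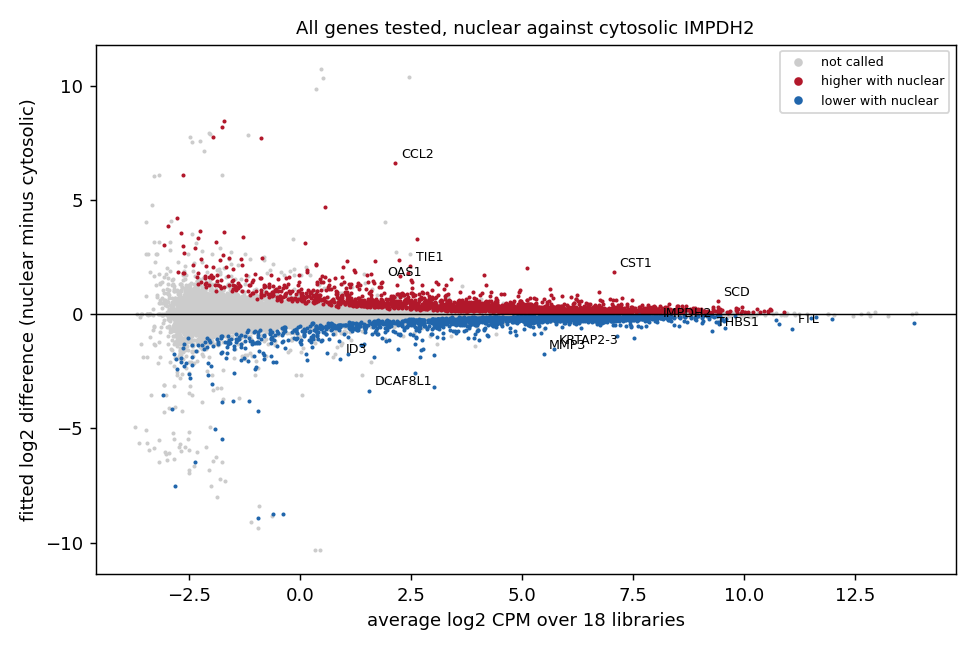
Fitted log2 difference (nuclear minus cytosolic IMPDH2) against the average log2 CPM over 18 libraries, 1 point per gene tested; red genes were called higher and blue genes lower with nuclear IMPDH2. CCL2 stands at 6.60, and most called genes with high counts lie close to 0.

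CCL2 (chr17:34255218-34257203, plus strand, GRCh38), the chemokine that draws monocytes, had the largest difference among coding genes of at least 2 CPM on average over all 18 libraries that passed the test without overlap. It stood at 19.9, 14.7 and 17.5 CPM in the nuclear libraries and 0.175, 0.225 and 0.1204 in the cytosolic ones. Every nuclear library was far above every cytosolic one (log2 difference 6.60 ± 0.178 SE, edgeR adjusted p = 1.39e-13; 96.9-fold). In KO it was at 2.08, with the unlocalised form at 1.17 and in WT at 4.32 CPM, so the nuclear form lay above and the cytosolic form below all of these groups. TIE1, an endothelial receptor tyrosine kinase, was also higher, with 10.03, 10.9 and 10.7 CPM in the nuclear libraries and 2.36, 2.55 and 2.41 in the cytosolic ones (log2 difference 2.11 ± 0.0744 SE, edgeR adjusted p = 4.41e-12). SPOCK1, a secreted proteoglycan, was higher (log2 difference 2.32) with the nuclear form at 2.72 against 0.543 CPM, under the minimum on average over these 6 libraries, and reached it through other groups (6.84 CPM in WT). The same holds for DCAF8L1, SELENBP1 and TMPRSS15 among the genes named by that rule. NUP210, a membrane protein of the nuclear pore, was at 8.85, 8.55 and 9.91 against 2.44, 2.29 and 3.03 CPM (3.53-fold), and the potassium channel KCNQ3 at 5.17 against 1.53 CPM (3.37-fold).

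Further genes among the 12 with the largest differences towards the nuclear form were the salivary cystatins CST1, CST2 and CST4. They are inhibitors of cysteine proteases that lie side by side on chromosome 20. CST1 was at 138, 97.5 and 126 CPM in the nuclear libraries and 38.3, 31.3 and 31.9 in the cytosolic ones (log2 difference 1.84 ± 0.151 SE, edgeR adjusted p = 1.16e-07), and CST4 and CST2 had log2 differences of 2.01 and 1.73. CST1 stood at 152 CPM with the unlocalised form, 248 in KO and 193 in WT. All 3 were called lower with both forms than in KO. For CST1, CST2 and CST4 the log2 differences from KO were -1.04, -1.21 and -0.68 with the nuclear form. With the cytosolic form they were -2.88, -2.94 and -2.69. These genes are near-identical copies, as are ALPP (2.31) and ALPG, so reads may be split between them and the single values are uncertain. HLA-DOA, a modulator of class II peptide loading, was at 4.63 against 1.29 CPM (log2 difference 1.85; the call was lost with the offset for transcript length). CMKLR1, the chemerin receptor, and CYRIA, a RAC1 regulator, completed the 12 but were low in both forms (0.33 against 0.0315 and 1.203 against 0.321 CPM). They entered through their WT level of 36.8 and 9.48 CPM.

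On the other side, MMP3 (chr11:102835801-102843803, minus strand, GRCh38), stromelysin, was lower with nuclear IMPDH2 at 26.6, 37.8 and 32.8 CPM in the nuclear libraries and 92.5, 123 and 110.3 in the cytosolic ones (log2 difference -1.75 ± 0.0993 SE, edgeR adjusted p = 2.07e-09). All nuclear libraries lay under all cytosolic ones, with the unlocalised form between them at 64.9 CPM. KRTAP2-3, a keratin-associated protein, was at 37.6, 44.5 and 36.6 against 108, 114 and 124 CPM (2.92-fold higher with the cytosolic form). DHRS2, a mitochondrial reductase on chromosome 14, stood at 4.16 against 14.4 CPM, and DCAF8L1 at 0.315 against 3.196. IL13RA2, a decoy receptor for IL-13, was at 1.299 and 3.88 CPM in these forms but at 30.4 with the unlocalised one. SELENBP1 (-1.85), TMPRSS15 (-1.75), ZNF334 (-1.32) and PRDM9 (-1.18) were also among the 12 lowest log2 differences. SERPINB2, ROBO2 and MAGEA6 were under 1 CPM in both forms and entered through their WT level. MAGEA6 also shares sequence with other MAGEA genes.

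**Figure D2:**
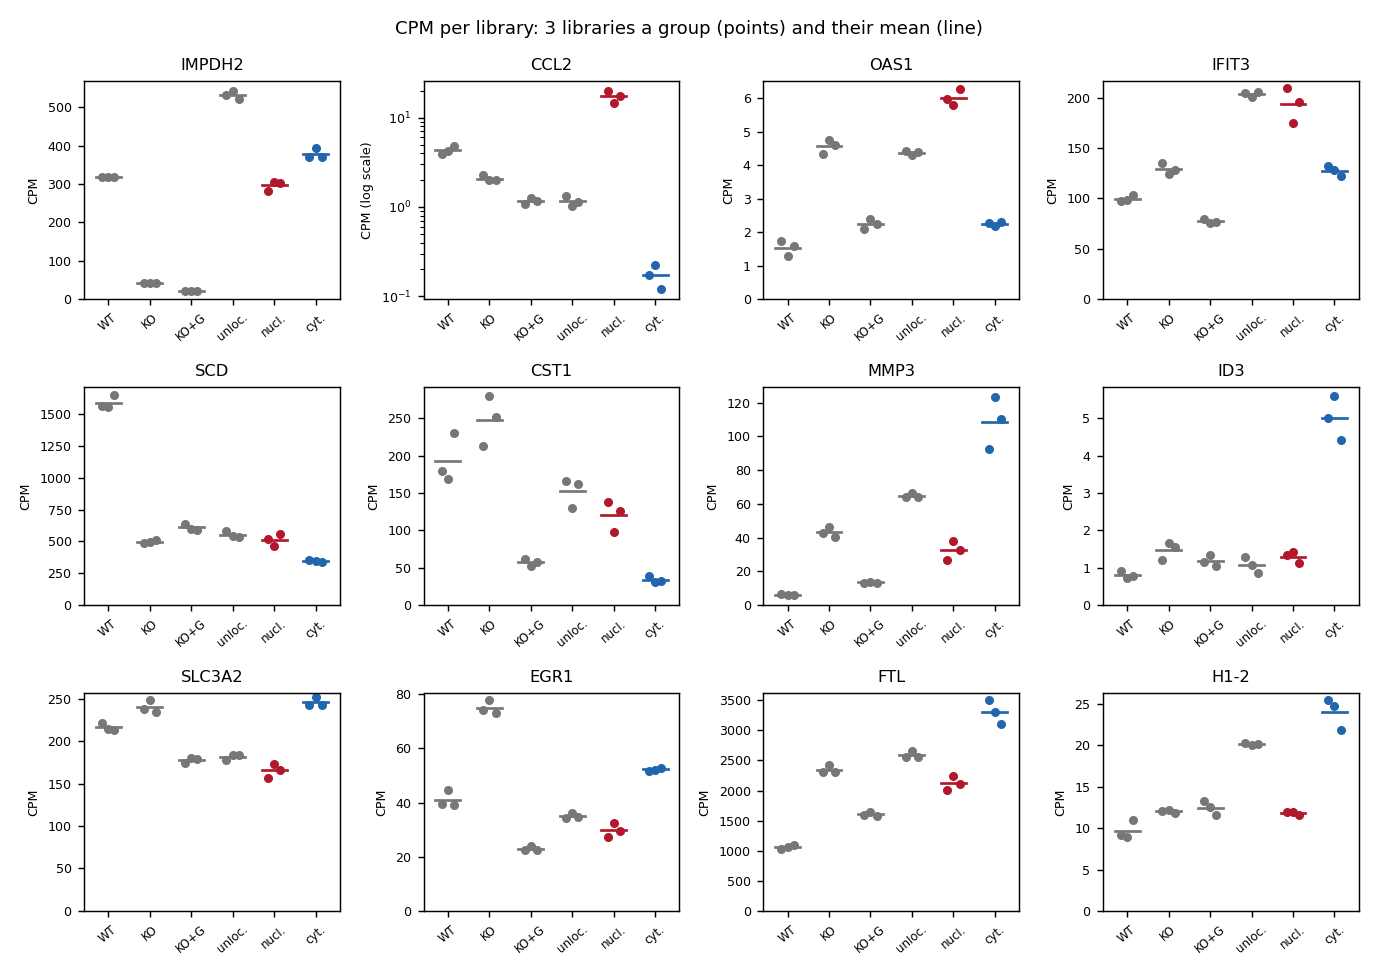
CPM of 12 genes in all 18 libraries, by group (KO+G is KO with guanosine; unloc., nucl. and cyt. are the unlocalised, nuclear and cytosolic forms); points are libraries and lines are means, and the CCL2 axis is logarithmic. CCL2 lies between 14.7 and 19.9 CPM with the nuclear and at 0.225 CPM or less with the cytosolic form, while ID3 lies between 4.42 and 5.596 CPM with the cytosolic form alone.

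Gene lists were read against the shares over all genes tested, 13.4% higher and 10.5% lower. Their median was read against the median over all genes, which was 0. Both shares are from the fit without the length offset. With it 1085 genes were higher and 770 lower, so a list's counts with the offset stand against smaller shares. Interferon-stimulated genes, sterol and fatty acid enzymes, class I antigen presentation, collagens and laminins, NF-kB targets and mitotic genes had higher shares with nuclear IMPDH2. Replication histones, ATF4 and NRF2 targets, immediate-early genes, matrix proteases and chaperones of the endoplasmic reticulum had higher shares with the cytosolic form. Without cytosolic replicate 3 the members higher with nuclear IMPDH2 numbered 18 of 30 for sterol and fatty acid synthesis, 9 of 16 for class I presentation, 13 of 25 for collagens and laminins and 11 of 27 for NF-kB targets. The lower members numbered 9 of 14 for histones, 17 of 30 for ATF4 targets, 12 of 24 for NRF2 targets, 11 of 28 for immediate-early genes, 11 of 24 for matrix proteases and 10 of 20 for the unfolded protein response.

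**Figure D3:**
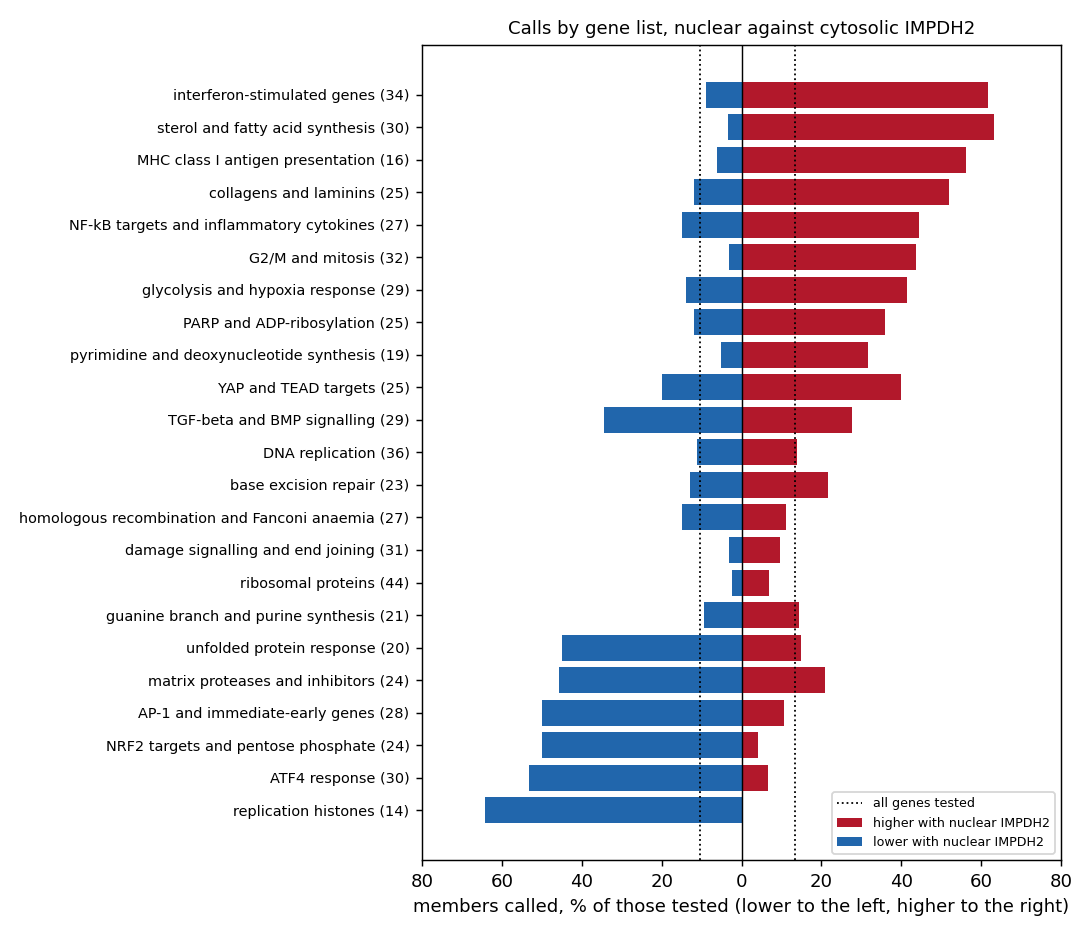
Percent of the tested members of a selection of the 36 gene lists (number tested in brackets) called higher (red, right) or lower (blue, left) with nuclear IMPDH2. Dotted lines mark the shares over all genes, 13.4% and 10.5%. Lists not drawn include G1/S cyclins and CDK inhibitors (45.5% higher, 22.7% lower) and serine and folate enzymes (27.8% higher, 33.3% lower). Interferon-stimulated genes reach 61.8% on the right and replication histones 64.3% on the left.

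Interferon-stimulated genes, the antiviral genes that type I interferon switches on through STAT2 and IRF9, were higher with nuclear IMPDH2 in 21 of 34 tested members and lower in 3 (median log2 difference 0.34). Under other settings, the length offset among them but not a minimum fold, 16 to 21 members were higher and 0 to 4 lower. Among the oligoadenylate synthetases, which make the activator of RNase L, OAS3 was at 44.5, 44.1 and 45.5 CPM in the nuclear libraries and 28.1, 26.6 and 28.98 in the cytosolic ones (log2 difference 0.68 ± 0.0325 SE, edgeR adjusted p = 2.29e-10), and OAS1 was at 5.98, 5.79 and 6.27 CPM in the nuclear libraries and 2.26, 2.18 and 2.29 in the cytosolic ones (2.68-fold). In both the groups were well apart. DDX60, a helicase-like antiviral factor, was at 36.4, 33.4 and 34.7 against 19.96, 18.1 and 18.4 CPM (log2 difference 0.89 ± 0.0528 SE, edgeR adjusted p = 3.47e-09). IFIT3, which binds foreign RNA with its family, was at 209.8, 175 and 196 against 132, 128 and 122 CPM (log2 difference 0.60 ± 0.0493 SE, edgeR adjusted p = 1.1e-07). IFIT1, IFIT2, MX1, MX2, OAS2, OASL, XAF1 and ISG15 were called higher as well, from 0.28 for ISG15 to 1.59 for MX2 on the log2 scale. The transcription factor IRF9, BST2 and SAMD9L were the 3 lower members (-0.13, -0.18 and -0.25).

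The reference level with unlocalised IMPDH2 lay near that of the nuclear form. OAS3 stood at 44.8 CPM there, DDX60 at 34.8 and IFIT3 at 204. The KO libraries lay nearer the cytosolic form for these 3 genes. OAS3 was at 29.9, 30.4 and 30.3 CPM in KO, DDX60 at 20.6, 20.2 and 20.7 and IFIT3 at 135, 124 and 128. Against unlocalised IMPDH2, 0 members were higher and 23 lower with the cytosolic form, and 1 higher and 7 lower with the nuclear form. Over all genes those shares were 10.8% and 13.4% for the cytosolic and 5.65% and 6.31% for the nuclear form, and the comparisons share the unlocalised libraries. The median log2 difference of the list from the unlocalised form was -0.02 for nuclear and -0.43 for cytosolic IMPDH2. From KO it was 0.11 for nuclear and -0.21 for cytosolic IMPDH2, against -0.02 for each over all genes. OAS1 in the unlocalised group did not lie near the nuclear form but between both forms, at 4.37 CPM. Without cytosolic replicate 3 the list again had 21 higher and 3 lower members. Of 26 members outside chromosomes 4, 13, 14 and 17, 16 were higher and 2 lower.

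**Figure D4:**
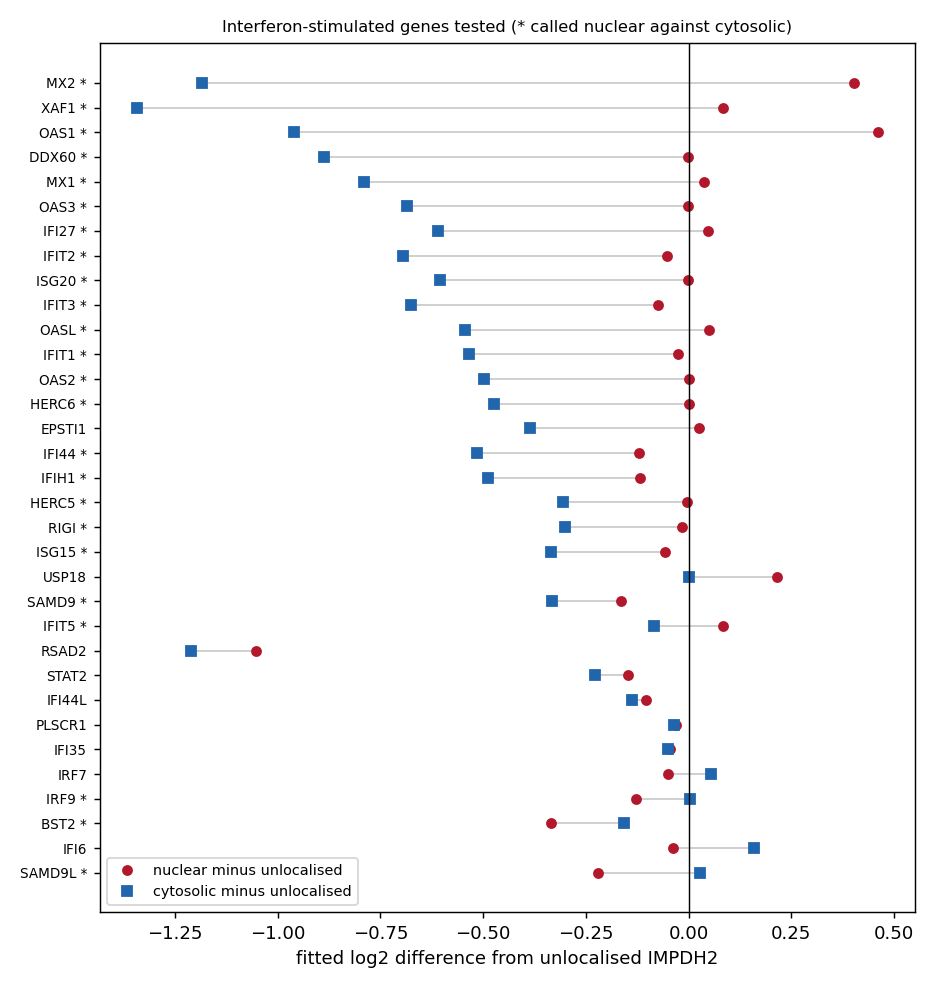
Fitted log2 difference from unlocalised IMPDH2 of tested interferon-stimulated genes with the nuclear (red circles) and the cytosolic form (blue squares); both use the same unlocalised libraries, and an asterisk marks genes called between nuclear and cytosolic. Most red circles lie near 0 and most blue squares to its left, with list medians of -0.02 and -0.43.

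The promoters of 3 of these genes are shown because they hold the letters GAAANNGAA, the core of the interferon response element, on either strand. Most matched promoters of the list hold them, which is a property of such genes and not a result of the comparison. Each sequence is the 250 bases before the RefSeq start (GRCh38.p14), 5′ to 3′ on the gene's strand, with the matches in capitals.
OAS3, chr12:112938224-112938473, plus strand: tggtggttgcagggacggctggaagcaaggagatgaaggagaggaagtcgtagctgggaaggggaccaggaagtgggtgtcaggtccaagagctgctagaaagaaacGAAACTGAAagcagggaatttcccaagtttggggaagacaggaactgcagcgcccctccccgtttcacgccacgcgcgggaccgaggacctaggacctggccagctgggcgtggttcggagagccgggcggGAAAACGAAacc
DDX60, chr4:168318753-168319002, minus strand: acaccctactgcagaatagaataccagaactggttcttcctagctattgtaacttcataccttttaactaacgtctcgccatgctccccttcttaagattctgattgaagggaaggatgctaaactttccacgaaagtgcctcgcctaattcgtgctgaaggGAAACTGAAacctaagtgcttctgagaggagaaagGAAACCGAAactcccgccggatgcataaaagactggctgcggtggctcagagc
IFIT3, chr10:89327747-89327996, plus strand: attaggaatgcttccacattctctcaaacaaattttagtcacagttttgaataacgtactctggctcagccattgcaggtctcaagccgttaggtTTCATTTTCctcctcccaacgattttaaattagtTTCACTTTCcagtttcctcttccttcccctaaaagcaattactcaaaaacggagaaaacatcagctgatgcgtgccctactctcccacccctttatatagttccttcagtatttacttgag
OAS1 had no match in this window. In windows from 250 bases before to 50 after the start, 19 of 27 promoters of the list held the letters (70.4%), against 6.74% of 11242 promoters of tested coding genes. Among all genes called higher the share was 7.55% and among those called lower 6.83%. Among genes at least 2-fold different it was 9 of 93 higher promoters (9.68%) and 4 of 54 lower promoters (7.41%). A match is a run of letters and not evidence of a bound factor.

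Genes of class I antigen presentation, which load peptides onto surface HLA molecules, were higher with nuclear IMPDH2 in 9 of 16 members and lower in 1 (median 0.14; 4 higher with the offset for transcript length). HLA-B was at 379, 356 and 391 CPM in the nuclear libraries and 284, 294 and 304 in the cytosolic ones (log2 difference 0.35 ± 0.03798 SE, edgeR adjusted p = 2.57e-06), without overlap. HLA-F had 3.27 against 1.24 CPM (log2 difference 1.39), and NLRC5, the transactivator of class I genes, 18.2 against 13.7 CPM (0.41). Both of those calls were lost with the length offset. IRF1 had a log2 difference of 0.25, which turned to -1.13 under that offset. B2M, the invariant light chain, was not called (0.08), and HLA-E was lower (-0.12). HLA genes are polymorphic near-copies of each other, so single values are uncertain. Against unlocalised IMPDH2, 0 members were higher and 16 lower with the cytosolic form, and 0 higher and 8 lower with the nuclear form.

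Enzymes of sterol and fatty acid synthesis were higher with nuclear IMPDH2 in 19 of 30 members and lower in 1, ELOVL6 (-0.15). These genes are controlled by the SREBP factors, and the differences were modest (median 0.14; 11 higher with the offset for transcript length). SCD, which desaturates stearoyl-CoA, stood at 522, 462 and 559 CPM in the nuclear libraries and 355, 346 and 341 in the cytosolic ones (log2 difference 0.57 ± 0.0519 SE, edgeR adjusted p = 3.93e-07). The nuclear libraries were all above the cytosolic ones. SREBF2, the sterol-responsive SREBP itself, was at 149.7, 144 and 154 against 122, 127 and 128 CPM (log2 difference 0.25 ± 0.026 SE, edgeR adjusted p = 1.82e-06). FDFT1, squalene synthase, was 1.23-fold higher and ACACA, acetyl-CoA carboxylase, 1.24-fold higher; the ACACA call was lost with the length offset. FASN (0.34) and SREBF1 (0.45) were called higher too. Against unlocalised IMPDH2, 0 members were higher and 23 lower with the cytosolic form, and 0 higher and 8 lower with the nuclear form. Of 24 members outside chromosomes 4, 13, 14 and 17, 14 were higher and 0 lower.

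NF-kB targets and cytokines split. 12 of 27 were higher with nuclear IMPDH2 and 4 lower (median 0.12; 8 higher and 4 lower with the length offset). Beside CCL2, ICAM1, an adhesion molecule for leukocytes, was at 34.9, 30.9 and 35.4 CPM in the nuclear libraries and 19.7, 18.04 and 19.1 in the cytosolic ones (log2 difference 0.83 ± 0.0814 SE, edgeR adjusted p = 8.98e-07). IL6 stood at 5.03, 4.38 and 5.79 against 2.48, 2.93 and 2.41 CPM (1.93-fold) and CSF3, the granulocyte growth factor, at 2.39 against 0.946 CPM (2.53-fold). PTGS2, cyclooxygenase 2, went the other way at 22.98, 28.1 and 24.7 against 42.1, 48.7 and 47.5 CPM (log2 difference -0.87 ± 0.0866 SE, edgeR adjusted p = 1.12e-06). CXCL8 (-0.53), IL1A (-0.54) and NFKB1 (-0.22) were lower too. Against unlocalised IMPDH2, 0 members were higher and 18 lower with the cytosolic form, and 2 higher and 21 lower with the nuclear form.

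More collagens and laminins were higher with nuclear IMPDH2, and more matrix proteases and inhibitors were lower. Of collagens and laminins, 13 of 25 were higher with nuclear IMPDH2 and 3 lower (median 0.19; 7 higher with the length offset). LAMA3, a chain of laminin-332, was at 74.4, 80.6 and 77.5 CPM in the nuclear libraries and 45.6, 46.1 and 47.1 in the cytosolic ones (log2 difference 0.75 ± 0.0676 SE, edgeR adjusted p = 3.55e-07). LAMB1 (0.36), COL12A1 (0.38) and COL6A2 (0.66) were called higher, and COL6A3 (-0.87), COL4A6 (-1.09) and LAMC1 (-0.12) lower. Of matrix proteases and their inhibitors, 11 of 24 were lower with nuclear IMPDH2 and 5 higher (median -0.11; 10 lower with the length offset). Next to MMP3, the collagenase MMP1 was at 15107, 16645 and 16100.0 CPM with the nuclear and 20897, 21662 and 20436 with the cytosolic form (1.32-fold lower with the nuclear form). SERPINE2, protease nexin 1, was at 69.3, 73.2 and 72.1 against 106, 116 and 108 CPM (log2 difference -0.62 ± 0.0432 SE, edgeR adjusted p = 1.68e-08). ADAMTS1, a secreted metalloprotease, was at 86.2 against 121 CPM. PLAU, urokinase, was higher instead (371 against 286 CPM).

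In the TGF-beta and BMP list 8 of 29 were higher and 10 lower (median 0.01; 4 higher and 6 lower with the length offset). The lower members included the ID genes ID1, ID2, ID3 and ID4, helix-loop-helix inhibitors that BMP signals induce. ID3 was at 1.34, 1.41 and 1.12 CPM in the nuclear libraries and 5.01, 5.596 and 4.42 in the cytosolic ones (log2 difference -1.95 ± 0.164 SE, edgeR adjusted p = 1.48e-07), and only the cytosolic group stood above 2 CPM among the 6 groups. ID4 was at 3.504, 4.18 and 4.35 against 7.58, 8.595 and 7.61 CPM (log2 difference -0.98 ± 0.0945 SE, edgeR adjusted p = 7.22e-07), ID1 had a log2 difference of -0.83 and ID2 of -0.76. SMAD7, the feedback inhibitor of the pathway, was at 2.48 against 4.68 CPM. The higher members were receptors and matrix-bound latency proteins among others: TGFBR2 (0.24), BMPR1A (0.18), LTBP1 (0.33) and LTBP3 (0.56). Mesenchymal genes were called in both directions, 6 higher and 7 lower of 24 (median log2 difference -0.05; 3 higher and 5 lower with the length offset). THBS1, thrombospondin 1, was at 448, 471 and 442 CPM in the nuclear libraries and 796, 762 and 733 in the cytosolic ones (log2 difference -0.75 ± 0.0389 SE, edgeR adjusted p = 6.31e-10), while S100A4 was higher at 64.1 against 35.9 CPM. Luminal and epithelial markers had 5 higher and 1 lower of 13 (median log2 difference 0.22; 5 higher and 0 lower with the length offset), led by the ETS factor SPDEF (8.74 against 3.49 CPM) and CLDN4 (15.5 against 8.21); the defining luminal genes ESR1, PGR, FOXA1 and CDH1 did not pass the count filter. YAP and TEAD targets had 10 higher and 5 lower of 25 (median log2 difference 0.05; 5 higher and 2 lower with the length offset).

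Among stress response genes more calls were lower with nuclear IMPDH2. Of ATF4 targets, which supply amino acids and charged tRNAs under amino acid stress, 16 of 30 were lower and 2 higher (median -0.15; 10 lower with the length offset). SLC3A2, the heavy chain of the amino acid exchanger, was at 157, 174 and 166 CPM in the nuclear libraries and 242, 252 and 243 in the cytosolic ones (log2 difference -0.57 ± 0.0328 SE, edgeR adjusted p = 2.22e-09), and its partner SLC7A5 at 306, 321 and 304 against 438, 437 and 425 CPM (log2 difference -0.48 ± 0.03001 SE, edgeR adjusted p = 5.75e-09). Both genes were without overlap between the forms. ASNS, asparagine synthetase, was at 31.5 against 43.95 CPM, and WARS1, on chromosome 14, at 197 against 237. ATF4 itself had a difference of -0.10 and DDIT4 was higher (0.48). Against unlocalised IMPDH2, 14 members were higher and 2 lower with the cytosolic form, and 3 higher and 6 lower with the nuclear form.

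NRF2 targets, which detoxify oxidants and store iron, were lower in 12 of 24 and higher in 1 (median -0.15; 9 lower with the length offset). The ferritin chains FTL and FTH1 were at 2121 against 3308 and 1774 against 2383 CPM; both have many processed pseudogenes, so these values are uncertain. NQO1, a quinone reductase, was at 204, 215 and 204 CPM in the nuclear libraries and 309.9, 299 and 273 in the cytosolic ones (log2 difference -0.50 ± 0.047 SE, edgeR adjusted p = 4.88e-07). SRXN1, sulfiredoxin, was at 76.2, 77.2 and 77.3 against 90.4, 90.9 and 91.2 CPM (-0.24 on the log2 scale), and the cystine carrier SLC7A11 had a difference of -0.52. AKR1C2 was the higher member (0.68), one of a family of near-copies whose single values are uncertain, and its call was lost when any of the 6 libraries but nuclear replicate 2 was left out. TKT of the pentose phosphate pathway was not called (-0.02). Of unfolded protein response genes 9 of 20 were lower and 3 higher (median -0.08; 4 lower with the length offset), with the chaperone HSPA5 at 644, 632 and 652 against 800.5, 826 and 764 CPM (log2 difference -0.31 ± 0.0306 SE, edgeR adjusted p = 9.8e-07) and calreticulin, CALR, at 1516 against 1812.

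AP-1 and immediate-early genes, switched on within minutes by growth factor and MAP kinase signals, were lower in 14 of 28 and higher in 3 (median -0.15; 9 lower with the length offset). EGR1 was at 27.5, 32.4 and 29.5 CPM in the nuclear libraries and 51.8, 52.2 and 52.9 in the cytosolic ones (log2 difference -0.81 ± 0.0551 SE, edgeR adjusted p = 1.34e-08). FOS, on chromosome 14, stood at 5.37, 5.42 and 4.99 against 8.15, 8.18 and 7.53 CPM, KLF10 at 57.9 against 74.5 and ATF3 at 3.798 against 5.54. FOSL2 (0.25), DUSP4 (0.25) and KLF6 (0.16) were the higher members, and JUN was not called (-0.05). The AP-1 letters TGANTCA, on either strand, were in 6.06% of promoter windows of genes called lower, 4.47% of those called higher and 4.7% of all. Among genes at least 2-fold different they were in 8 of 54 lower promoters (14.8%) and 7 of 93 higher promoters (7.53%), which are few. Glycolysis and hypoxia genes had 12 higher and 4 lower of 29 (median log2 difference 0.05; 6 higher and 2 lower with the length offset); ENO2, neuronal enolase, was at 88.02 against 64.5 CPM and ENO1 at 1049 against 962.

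More mitotic genes were called higher than lower with nuclear IMPDH2. 14 of 32 were called higher and 1 lower, with a median log2 difference of 0.09; the counts were 10 higher without cytosolic replicate 3 and 3 with the offset for transcript length. HMMR, a spindle protein, was at 24.6, 24.9 and 24.8 CPM in the nuclear libraries and 20.1, 18.8 and 17.7 in the cytosolic ones (log2 difference 0.39 ± 0.0547 SE, edgeR adjusted p = 3.97e-05). MKI67, the proliferation antigen, was at 366, 405 and 364 against 333, 312 and 311 CPM (log2 difference 0.25 ± 0.0479 SE, edgeR adjusted p = 0.000965), with the lowest nuclear library above the highest cytosolic one; its call was lost with the length offset, as were those of PLK1 (0.16) and BIRC5 (0.16). CCNA2, cyclin A2, on chromosome 4, was the lower member (-0.22), and CDK1 was not called (0.02). Against KO, the list's median was 0.95 for the nuclear and 0.88 for the cytosolic form. G1/S cyclins and CDK inhibitors had 10 higher and 5 lower of 22 (median log2 difference 0.04; 2 higher and 3 lower with the length offset), with the pocket protein RBL2 at 45.5 against 37.5 CPM; 6 were higher without cytosolic replicate 3.

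The mitotic promoters commonly hold the letters TTCAAA, the core of the cell cycle homology region, searched on either strand. In the same promoter windows 61.5% of the list's 26 promoters held them, against 10.1% of all, 10.9% of genes called higher and 10.7% of those called lower. Among genes at least 2-fold different it was 19 of 93 higher promoters (20.4%) and 9 of 54 lower promoters (16.7%). The promoter of HMMR, the member with the largest difference, shows the element in capitals close to the start.
HMMR, chr5:163460382-163460631, plus strand: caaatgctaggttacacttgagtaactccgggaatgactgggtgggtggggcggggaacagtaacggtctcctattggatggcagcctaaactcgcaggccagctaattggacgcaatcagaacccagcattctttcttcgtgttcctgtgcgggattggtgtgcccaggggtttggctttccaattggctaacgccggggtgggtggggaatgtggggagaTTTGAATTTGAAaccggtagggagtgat

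Replication-dependent histones had the lowest median of the lists. 9 of 14 tested members were lower with nuclear IMPDH2 and 0 higher (median -0.73; 6 lower with the length offset). H1-2, a linker histone, was at 11.9, 11.9 and 11.6 CPM in the nuclear libraries and 25.5, 24.8 and 21.9 in the cytosolic ones (log2 difference -1.03 ± 0.0672 SE, edgeR adjusted p = 9.41e-09). H2BC12 was at 24.4, 21.6 and 23.5 against 44.2, 38.2 and 38.5 CPM (log2 difference -0.80 ± 0.0533 SE, edgeR adjusted p = 1.15e-08), H4C8 at 4.41 against 8.09 and H2AC6 at 14.1 against 21.6. In each of these the groups were apart. Against unlocalised IMPDH2, 4 members were higher and 0 lower with the cytosolic form, and 0 higher and 7 lower with the nuclear form. The median log2 difference of the list from KO was 0.03 for the nuclear and 0.45 for the cytosolic form. Most replication histone transcripts end without a poly(A) tail, the libraries were made with a stranded mRNA kit, and the part of tail choice in the difference was not tested. The genes are also near-copies of each other, and single values are uncertain. DNA replication factors had 5 higher and 4 lower of 36 (median log2 difference 0.00; 2 higher and 0 lower with the length offset), and 3 were higher without cytosolic replicate 2.

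Guanine branch and purine synthesis genes, IMPDH2 included, had 3 higher and 2 lower of 21 (median log2 difference 0.01; 1 higher and 1 lower with the length offset); GMPS, the enzyme after IMPDH2, was at 113 and 112 CPM and was not called. Purine salvage had 3 higher and 3 lower of 18 (median log2 difference -0.01; 0 higher and 2 lower with the length offset). Pyrimidine and deoxynucleotide genes had 6 higher and 1 lower of 19 (median log2 difference 0.04; 2 higher and 0 lower with the length offset), with cytidine deaminase, CDA, at 19.5 against 13.8 CPM. Serine and folate enzymes had 5 higher and 6 lower of 18 (median log2 difference -0.01; 2 higher and 1 lower with the length offset), with 3 higher without nuclear replicate 1. The lower member MTHFD1 lies on chromosome 14 (-0.16) and lost its call with the length offset. NAD genes had 4 higher and 2 lower of 18 (median log2 difference 0.03; 1 higher and 0 lower with the length offset). NMNAT2, an adenylyltransferase that makes NAD, was at 35.7 against 25.2 CPM, a call lost with the length offset.

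In the PARP and ADP-ribosylation list 9 of 25 were higher with nuclear IMPDH2 and 3 lower (median 0.07; 5 higher with the length offset). The higher members included PARP4 (228 against 196 CPM, on chromosome 13), PARP12 (14.8, 14.7 and 16.2 against 10.8, 10.7 and 11.4 CPM), PARP14 (0.32) and PARP9 (0.44). Those last named genes are known to respond to interferon. PARP2, which shares DNA break signalling with PARP1, was lower (-0.19) and lies on chromosome 14, as does TDP1 (-0.12). PARP1, its cofactor HPF1 and the hydrolase PARG were not called (0.05, 0.05 and 0.02). Damage signalling and end joining had 3 higher and 1 lower of 31 (median log2 difference -0.02; 1 higher and 1 lower with the length offset): PRKDC (0.20), RIF1 (0.18) and ATR (0.14) were higher, RAD1 (-0.14) was lower, and ATM, CHEK1 and TP53BP1 were not called. Homologous recombination had 3 higher and 4 lower of 27 (median log2 difference 0.00; 1 higher and 2 lower with the length offset), with FANCM and XRCC3 on chromosome 14 (-0.30 and -0.32); the FANCM call was lost with the length offset. Base excision repair had 5 higher and 3 lower of 23 (median log2 difference 0.01; 2 higher and 1 lower with the length offset), and 3 were higher without cytosolic replicate 1 as well as without cytosolic replicate 2. The glycosylase NEIL1 was at 4.69 against 2.71 CPM, a call lost with the length offset. The p53 targets had 5 higher and 4 lower of 30 (median log2 difference 0.01; 3 higher and 2 lower with the length offset), and 3 were higher without cytosolic replicate 1.

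Ribosomal proteins had 3 higher and 1 lower of 44 (median log2 difference 0.01; 5 higher and 0 lower with the length offset). Their count of higher members moved with single libraries: it was 7, 2 and 0 without nuclear replicate 1, 2 and 3, and 8, 2 and 1 without cytosolic replicate 1, 2 and 3. Ribosome biogenesis factors had 5 higher and 3 lower of 33 (median log2 difference -0.02; 2 higher and 0 lower with the length offset). Without nuclear replicate 1 they had 3 higher. The lower members numbered 0, 1 and 3 without nuclear replicate 1, 2 and 3 and 0, 0 and 4 without cytosolic replicate 1, 2 and 3. Nuclear pore and transport genes had 9 higher and 5 lower of 46 (median log2 difference 0.02; 1 higher and 1 lower with the length offset), with 4 higher without cytosolic replicate 3 and 3 lower with any 1 nuclear library left out. The respiratory chain genes of the nucleus had 1 higher and 1 lower of 35 (median log2 difference 0.04; 1 higher and 0 lower with the length offset). Of the 13 mitochondrially encoded genes 0 were called by edgeR's quasi-likelihood test and 0 by DESeq2, and edgeR gave 1 higher and 1 lower ones an unadjusted p under 0.05. edgeR called 2 lower without cytosolic replicate 3, 1 higher without cytosolic replicate 2, 2 lower with no filter on low counts and 1 lower among coding genes alone.

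Runs of neighbouring genes shifted together on chromosomes 4, 14 and 17, and genes of chromosome 13 shifted less. In windows of 25 tested coding genes in genome order, 36 of 546 had a median log2 difference of -0.1 or less and 20 of 0.1 or more. On chromosome 14, 17 of 18 windows were at -0.1 or less. There 249 of 453 coding genes were lower with nuclear IMPDH2 (55%) and 25 higher, and they made up 14.7% of all lower coding calls. The chromosome's median was -0.15 between the forms, 0.06 for nuclear and 0.21 for cytosolic IMPDH2 against the unlocalised form. A run of 150 genes on chromosome 4 from TRMT10A to TMEM144 (chr4:99546709-158255411) had 101 lower and 0 higher, with a median of -0.25. Its median against the unlocalised form was -0.16 for nuclear and 0.08 for cytosolic IMPDH2. At the start of chromosome 17, from DOC2B to KIF1C (chr17:142789-5028401), 43 of 75 genes were higher and 0 lower (median 0.16). On chromosome 13, 78 of 237 were higher and 16 lower (median 0.09), and 5 of its 9 windows were at 0.1 or more. Of the 20 windows at 0.1 or more, 12 lay outside chromosomes 13 and 17; the highest of these was on chromosome 21, from GET1-SH3BGR to HSF2BP (0.20), and the next on chromosome 6, from NOTCH4 to VPS52 (0.18).

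Relative to the cytosolic libraries, every nuclear library lay lower in the chromosome 4 run and on chromosome 14. On chromosome 14 the cytosolic form was further from the unlocalised form (0.21) than the nuclear form was (0.06). Measured against the mean of the cytosolic libraries, the chromosome 4 run had medians of -0.22, -0.23 and -0.21 in the nuclear libraries and 0.01, 0.03 and -0.04 in the cytosolic ones. Chromosome 14 had -0.14, -0.14 and -0.13 against 0.01, 0.01 and -0.02. The copy number of these regions was not measured, and its part in the calls there cannot be told apart from that of the form. Without genes of chromosomes 4, 13, 14 and 17, 2170 genes were higher and 1514 lower, with 164 and 129 of them at least 2-fold. CCL2 lies on chromosome 17 outside the run at its start. Windows elsewhere included a clustered protocadherin window on chromosome 5 (median -0.60) and windows of zinc finger genes on chromosome 19, such as one from ZNF548 to ZNF587B (median -0.21).

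**Figure D5:**
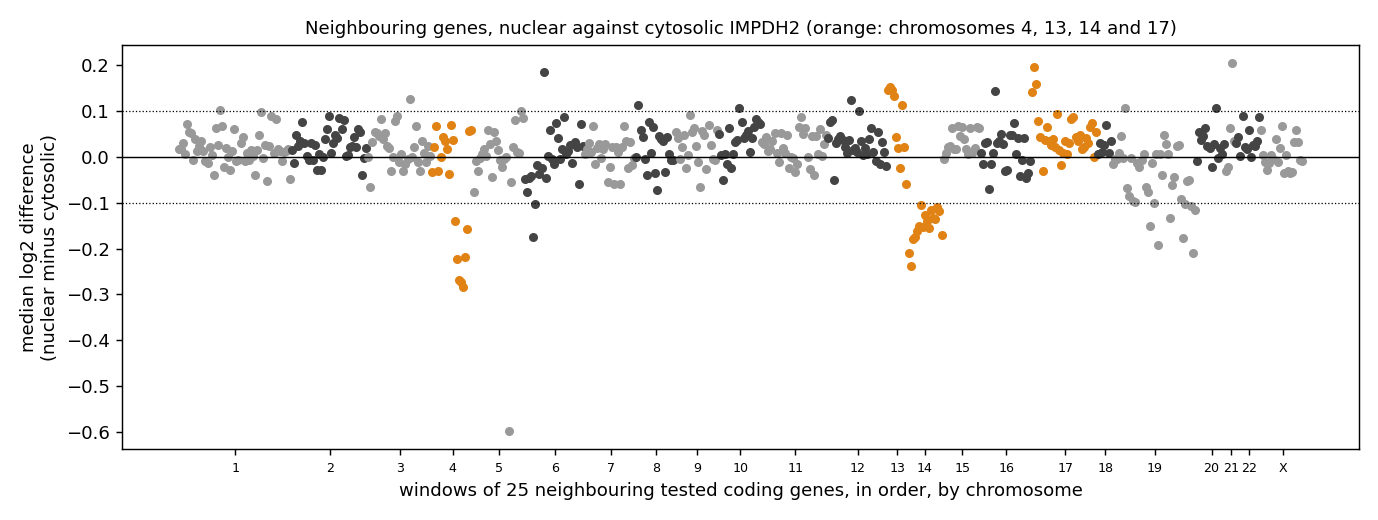
Median log2 difference (nuclear minus cytosolic IMPDH2) of each window of 25 neighbouring tested coding genes, in order along chromosomes 1 to X; dotted lines mark -0.1 and 0.1. The run on chromosome 4 and 17 of 18 windows of chromosome 14 lie at or under -0.1, and the lowest window, at -0.60, holds the clustered protocadherins of chromosome 5.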

How the data were processed

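The authors deposited expected counts per transcript from Salmon 1.10.0 for each library, with TPM (levels scaled for transcript length and depth) and the effective length of each transcript, per the file headers. The submitters' processing notes also name Trim Galore 0.6.10 and hg19, without roles; filters are not given in the sources used here. Libraries were made with a stranded mRNA kit, per the labels' protocols. Expected counts deposited by the authors were summed to genes and rounded. Of 62749 genes, 57804 were matched by identifier to GENCODE 29 (GRCh38) for positions and class.

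A single edgeR 4.0.16 fit (quasi-likelihood, R 4.3.3, limma 3.58.1) took all 18 libraries, with filterByExpr, TMM scaling and Benjamini-Hochberg adjustment over 19252 genes at 0.05. The test was tried on simulated counts first. Libraries held 45865079 to 63276484 counts, and the common coefficient of variation was 4.87%. CPM values are TMM-scaled, and gene TPM deposited by the authors serves levels per length: nuclear libraries had 206 ± 10.5 (SD, n = 3) TPM of IMPDH2 and 28.7 of IMPDH1, cytosolic libraries 260 ± 7.13 and 25.8.

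The members, the 36 gene lists and the tests were chosen with earlier results of these data known. Named were IMPDH2, IMPDH1 and PARP1, the 12 highest and 12 lowest coding genes called without overlap with a mean log2 CPM of 1 or more, and up to 4 members with the smallest adjusted p in the main direction of each list with 5 or more calls; further members were named after their values were seen. Lists were described by counts and medians, with no test. RefSeq promoters (GRCh38.p14) matched 11242 of 13992 tested coding symbols; motifs were searched on both strands. Chromosome windows were examined after the values were seen. Replicate numbers did not pair the libraries (correlations of deviations from the group means -0.026, 0.035 and -0.029). Alternatives were another scaling, no filter, DESeq2 1.42.0, fewer libraries, a replicate block, a length offset, a minimum fold and coding genes alone. Values of some list members are not reported here.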

Additional observations from a re-analysis of the deposited data

How the results depend on the processing

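The direction of the IMPDH2 difference held in every alternative, from -0.37 to -0.31 with a library left out, and its call held in all but a test for more than a 2-fold change (-0.35, adjusted p = 1 by edgeR). Leaving out 1 library at a time gave 3590 to 4186 called genes, 2018 to 2271 higher, 1553 to 1915 lower, and 155 to 191 higher and 120 to 140 lower by at least 2-fold. DESeq2's Wald test called 4345 genes, its size factors in edgeR 4543, and library totals 4652. Without the filter on low counts 276 genes were at least 2-fold lower, and in a fit of coding genes alone 87. The test for more than a 2-fold change called 44 genes, 25 higher and 19 lower. Calls outside chromosomes 4, 13, 14 and 17, an alternative chosen after seeing the data, numbered 3684. An offset for the length of the transcripts behind each gene left 1855 calls, 1085 higher and 770 lower; the cause was not tested. Of 143 named values under it, 102 kept direction and call, 38 lost the call and 3 reversed, namely TK2 (-0.79), LIG1 (-0.021) and IRF1 (-1.13), none called there. Same-numbered libraries share only a number: the replicate block in the fit of all libraries gave 4425 calls (2486 higher, 1939 lower), and the replicate block with the 6 libraries alone gave 3025 calls (1693 higher, 1332 lower, 96 of these at least 2-fold lower). Of 612 list medians under alternatives, 497 moved by less than the spread between nuclear libraries and 115 by more. Counts set the precision: genes near the filter have the widest errors, and depth was alike in both groups.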

Other observations

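The gene groups here were picked by symbol after their values were seen, so their counts are descriptions with no test. Over all genes 13.4% were higher and 10.5% lower without the length offset. With it 1085 genes were higher and 770 lower. HLA class II genes, which present peptides to helper T cells and are usually confined to immune cells or interferon-treated cells, had 9 higher and 0 lower of 11 (median log2 difference 0.73; 8 higher and 0 lower with the length offset). They lie close together (chr6:32439842-33087201), in the region of the window from NOTCH4 to VPS52 above, so the 2 observations are not separate. HLA-DPA1 was at 52.2, 53.3 and 55.9 CPM in the nuclear libraries and 25.7, 27 and 24.9 in the cytosolic ones (log2 difference 1.05 ± 0.0431 SE, edgeR adjusted p = 4.06e-11), and HLA-DPB1 at 10.9, 11.7 and 12.6 against 5.09, 4.44 and 4.84 CPM. The nuclear libraries were 2.08-fold and 2.45-fold above the cytosolic ones. The unlocalised form stood at 45.03 and 10.1 CPM and WT at 5.32 and 0.9702.

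Clustered protocadherins, cell surface proteins encoded in a row on chromosome 5, had 0 higher and 17 lower of 40 (median log2 difference -0.51; 0 higher and 13 lower with the length offset). PCDHB13 was at 4.71 against 8.81 CPM and PCDHB5 at 9.32 against 14.1. PCDHGB1 was at 8.65, 5.38 and 5.02 CPM in the nuclear libraries and 12.9, 8.03 and 13.4 in the cytosolic ones, and its groups overlapped. The alpha and gamma genes share their last exons, so their single values are uncertain. Genes named ZNF, mostly zinc finger repressors, had 16 higher and 124 lower of 473 (median log2 difference -0.11; 6 higher and 40 lower with the length offset), and those on chromosome 19 4 higher and 76 lower of 238 (median log2 difference -0.15; 1 higher and 26 lower with the length offset). The median of the chromosome 19 genes against the mean of the cytosolic libraries was -0.13, -0.11 and -0.14 in the nuclear libraries, and without cytosolic replicate 3 the group had 68 lower genes. The EGF receptor ligands had 0 higher and 3 lower of 6 (median log2 difference -0.29; 0 higher and 3 lower with the length offset). Amphiregulin, AREG, was at 7.55, 8.85 and 7.61 against 16.9, 17.01 and 15.1 CPM (log2 difference -1.03 ± 0.0814 SE, edgeR adjusted p = 7.5e-08), and epiregulin, EREG, at 19.98, 22.5 and 19.6 against 38.6, 41.9 and 38.02 (log2 difference -0.93 ± 0.0667 SE, edgeR adjusted p = 2.26e-08). HBEGF was lower by less (-0.24). AREG and EREG lie on chromosome 4, outside the run described above.

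Among noncoding genes, of which 151 were higher and 325 lower, SLC1A2-AS1 was at 15.5, 15.5 and 16.8 CPM in the nuclear libraries and 3.18, 3.08 and 2.91 in the cytosolic ones (log2 difference 2.38 ± 0.117 SE, edgeR adjusted p = 3.46e-10), above every other group (unlocalised 1.26, KO 3.24, WT 0.0259 CPM). THBS1-IT1 was at 4.01, 4.61 and 4.41 against 17.4, 16.2 and 14.4 CPM (log2 difference -1.88 ± 0.0896 SE, edgeR adjusted p = 2.29e-10), on the same side as THBS1, within which it is annotated on the same strand, so that reads of the 2 genes may be split and its value is uncertain. LUCAT1, a stress-induced RNA, was at 14.6, 17.2 and 13.4 against 28.7, 28.1 and 29.9 CPM (log2 difference -0.94 ± 0.0758 SE, edgeR adjusted p = 9.98e-08).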
